A study of Homo sapiens with 6 samples.

Results

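The small nucleolar RNAs (snoRNAs) and small Cajal body RNAs (scaRNAs) of U2OS cells, a human osteosarcoma line, were compared between 3 libraries from cells kept in DMSO, the solvent control, and 3 libraries from cells kept in PARGi, the inhibitor PDD00017273 at 25 µM. Both groups were held in their medium for 4 days. PARG degrades chains of poly(ADP-ribose), and the compound blocks this activity. The libraries were labelled as biological triplicates of unmodified cells of this line, and whether they came from separate cultures is not stated further, so the p-values measure the spread between these libraries. Gene rows with a symbol starting SNORD, SNORA or SCARNA were selected on their measured counts, by a sum of at least 60 raw counts over the 6 libraries. This gave 39 members of 553 rows in the 3 classes (7.05%), and of 60708 gene rows in all: 22 SNORD, 16 SNORA and 1 SCARNA gene. The sum uses both groups together and not the difference between them. The members were nevertheless chosen with earlier results of these data known.

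SnoRNAs are short stable RNAs that guide the chemical modification of other RNAs in the nucleolus by base pairing. The box C/D kind, named SNORD, carries a C box and a D box and directs methylation of the ribose by fibrillarin. The box H/ACA kind, named SNORA, ends in an ACA box and directs the conversion of uridine to pseudouridine by dyskerin. ScaRNAs carry the same boxes, act in Cajal bodies and guide modification of the spliceosomal snRNAs. Most human members are cut out of introns of host genes, many of which encode ribosomal proteins or other parts of the translation machinery.

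The box C/D members on which the results below turn are shown first, with their boxes and host introns. Sequences were read from GENCODE 29 transcripts on GRCh38 and are written 5′ to 3′ with T for U. Capitals mark the C box TGATGA, where it lies in the first 20 bases, and the D box CTGA in the last 20. SNORD17 (chr20:17962710-17962946, minus strand) lies in an intron of SNX5 and was the member with the most counts. SNORD104 (chr17:64146083-64146152, plus strand) lies in an intron of SNHG25, and SNORD100 (chr6:132816802-132816877, plus strand) and SNORD101 (chr6:132815307-132815379, plus strand) in introns of RPS12. SNORD14A (chr11:17074654-17074744, minus strand, in RPS13) and SNORD14E (chr11:123058077-123058161, minus strand, in HSPA8) are copies of U14, which is needed for the maturation of 18S rRNA, and were 76.9% identical. SNORD117 (chr6:31536374-31536449, minus strand, in DDX39B) is shown because its groups did not overlap, and has no TGATGA in that window.
SNORD17: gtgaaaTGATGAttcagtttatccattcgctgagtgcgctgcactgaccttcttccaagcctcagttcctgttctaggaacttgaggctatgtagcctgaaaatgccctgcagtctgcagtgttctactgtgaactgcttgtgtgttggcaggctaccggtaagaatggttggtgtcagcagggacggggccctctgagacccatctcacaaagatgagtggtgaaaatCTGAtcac
SNORD104: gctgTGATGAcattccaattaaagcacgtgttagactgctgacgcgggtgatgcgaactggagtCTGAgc
SNORD100: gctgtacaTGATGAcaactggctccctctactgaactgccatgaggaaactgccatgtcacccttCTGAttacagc
SNORD101: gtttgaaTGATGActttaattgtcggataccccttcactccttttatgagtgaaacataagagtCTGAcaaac
SNORD14A: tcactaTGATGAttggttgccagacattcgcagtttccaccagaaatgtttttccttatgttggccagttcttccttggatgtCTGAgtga
SNORD14E: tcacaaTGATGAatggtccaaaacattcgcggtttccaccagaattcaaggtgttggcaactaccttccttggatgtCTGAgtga
SNORD117: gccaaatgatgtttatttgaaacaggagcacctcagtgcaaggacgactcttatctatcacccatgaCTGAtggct

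The box H/ACA members and the scaRNA follow, with the ACA box in capitals where it lies in the last 8 bases. SNORA11F (chr10:73126080-73126207, minus strand) lies in no annotated gene on its strand, and SNORA11 (chrX:54814370-54814497, plus strand) in an intron of MAGED2. They are shown together because they were 86.7% identical while SNORA11F had 817 counts and SNORA11 78. SNORA73B (chr1:28508559-28508762, plus strand, in RCC1) is a copy of U17, which takes part in early cleavage of the rRNA precursor. SNORA33 (chr6:132817219-132817348, plus strand) is the third member in RPS12. SNORA7B (chr3:129397210-129397348, minus strand, in the pseudogene RPL32P3) had the smallest p-value of all members, and SCARNA20 (chr17:60231516-60231646, minus strand, in USP32) was the scaRNA.
SNORA11F: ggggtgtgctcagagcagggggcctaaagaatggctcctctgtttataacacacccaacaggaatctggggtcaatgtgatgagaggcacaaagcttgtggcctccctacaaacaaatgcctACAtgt
SNORA11: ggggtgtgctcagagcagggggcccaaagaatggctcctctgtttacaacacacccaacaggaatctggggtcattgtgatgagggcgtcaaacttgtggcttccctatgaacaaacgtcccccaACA
SNORA73B: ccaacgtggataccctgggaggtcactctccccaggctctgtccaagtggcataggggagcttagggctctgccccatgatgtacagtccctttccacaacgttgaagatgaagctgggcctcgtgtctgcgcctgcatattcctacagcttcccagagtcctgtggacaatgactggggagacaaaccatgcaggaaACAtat
SNORA33: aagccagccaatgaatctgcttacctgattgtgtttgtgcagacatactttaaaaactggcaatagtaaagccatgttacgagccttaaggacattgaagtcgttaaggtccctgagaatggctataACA
SNORA7B: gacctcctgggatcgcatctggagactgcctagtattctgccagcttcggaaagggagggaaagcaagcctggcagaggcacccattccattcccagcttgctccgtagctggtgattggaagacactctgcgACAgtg
SCARNA20: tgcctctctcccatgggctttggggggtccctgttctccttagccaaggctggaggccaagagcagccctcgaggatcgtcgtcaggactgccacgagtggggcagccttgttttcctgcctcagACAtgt

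The boxes were searched on the transcript strand alone. A C box TGATGA was found in the first 20 bases of 15 of the 22 SNORD members, and in 205 of all 313 SNORD genes with a sequence (65.5%). The D box CTGA was found in the last 20 bases of 22 of 22 SNORD members and of 286 of 313 genes (91.4%). An ACA in the last 8 bases was found in 15 of 16 SNORA members and in 177 of 213 SNORA genes (83.1%), against 6.07% of SNORD genes and 6 of the 22 SNORD members. The C box occurred in that window in 0.469% of SNORA genes. SNORD members were 68 to 237 nt long (median 80.5 nt) and SNORA members 128 to 272 nt (median 134.5 nt).

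Few genes of the 3 classes were counted at all. Of the 553 rows, 391 had 0 counts in every library: 246 of 314 SNORD, 133 of 214 SNORA and 12 of 25 SCARNA rows. A further 123 rows had 1 to 59 counts in total. A count of 0 allows up to 3 counts, which is 0.0373 to 0.05 CPM (counts scaled to 1000000 per library) across the libraries and covers counting error only. The 39 members together held 8690 counts, 0.00209% of all counts, with 64 (SNORA9B) to 935 (SNORD17) each and a median of 145. The libraries held 60286931 to 80605145 counts in total, and the 6 sums over members were 1305, 1313 and 1575 in DMSO and 1198, 1571 and 1728 in PARGi.

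The rows at 0 lay unevenly in the annotation. Of the 181 genes that overlap an exon of another gene on the same strand, 172 (95.03%) had 0 counts, against 219 of 371 (59.03%) that overlap none. All 39 members belonged to the second kind. Other small structured RNAs, such as spliceosomal, Y and vault RNAs, were taken by symbol, with copies named as pseudogenes included. They were at 0 in 51 of 54 overlapping and 1331 of 1844 (72.2%) other genes. Among well-known snoRNAs, SNORD118 (U8, which acts in the processing of the large subunit rRNAs), SNORA73A, SCARNA2 and SCARNA10 were at 0 and overlap an exon, while SCARNA13 was at 0 and does not. SNORD13 had 1 count, SCARNA7 15, and SNORD3A (U3, which acts in 18S rRNA processing) 56. How reads that match several genes were counted is not given in the sources used here, and its part in these zeros was not tested. A count of 0 in an overlapping gene therefore does not show that its RNA was absent.

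**Figure D1:**
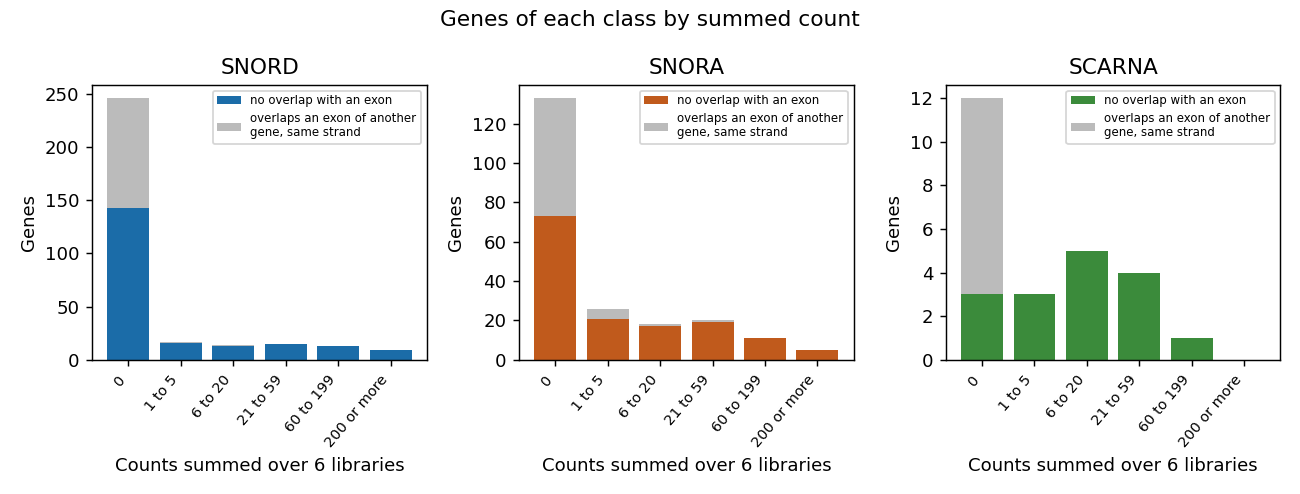
Number of genes (vertical axis, a separate scale in each panel) of the SNORD, SNORA and SCARNA classes by their counts summed over the 6 libraries (horizontal axis, in 6 classes). Gray marks genes that overlap an exon of another gene on the same strand; these make up 103 of the 246 SNORD genes, 60 of the 133 SNORA genes and 9 of the 12 SCARNA genes at 0, and no gene with 60 counts or more.

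The lower limit of 60 counts is a cut through a continuous range. Just inside it lay SNORA9B with 64 counts, SNORD99 with 65 and SNORD117 with 69. Just outside lay SNORA80E with 58 counts, SNORD3A with 56, and SNORA14B and SNORA80D with 53 each. Of the members, 38 passed edgeR's filter on low counts and were tested. SNORD99 did not pass, with 9, 7 and 17 counts in DMSO and 8, 9 and 15 in PARGi.

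Per kilobase of gene length, the mean level over the 6 libraries spread over an order of magnitude. It was 15.4 CPM per kb for SNORA11F, 12.7 for SNORD104, 10.5 for SNORD4A, 10.4 for SNORD100, 9.54 for SNORA73B, 9.44 for SNORD17 and 9.21 for SNORA33. The lowest levels were 1.176 CPM per kb for SNORA9B, 1.33 for SNORA59A and 1.34 for SCARNA20. SNORD members had a median of 4.77 CPM per kb and SNORA members of 2.09. Members were selected on summed counts whatever their length, so a shorter gene needed a higher level per kb to enter. SNORD members were shorter, with a median of 80.5 nt against 134.5 nt for SNORA members. The gap between the medians per kb, like the lowest levels, therefore depends in part on the selection. It does not rank the classes. Near-identical copies limit what some of these levels mean. SNORD62B (151 counts) has the same sequence as SNORD62A (24 counts), and SNORA59A (84 counts) the same as SNORA59B (0 counts). Of the 39 members, 11 were at least 90% identical to another snoRNA gene and 17 at least 80%, so their counts may be split or lost between copies.

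**Figure D2:**
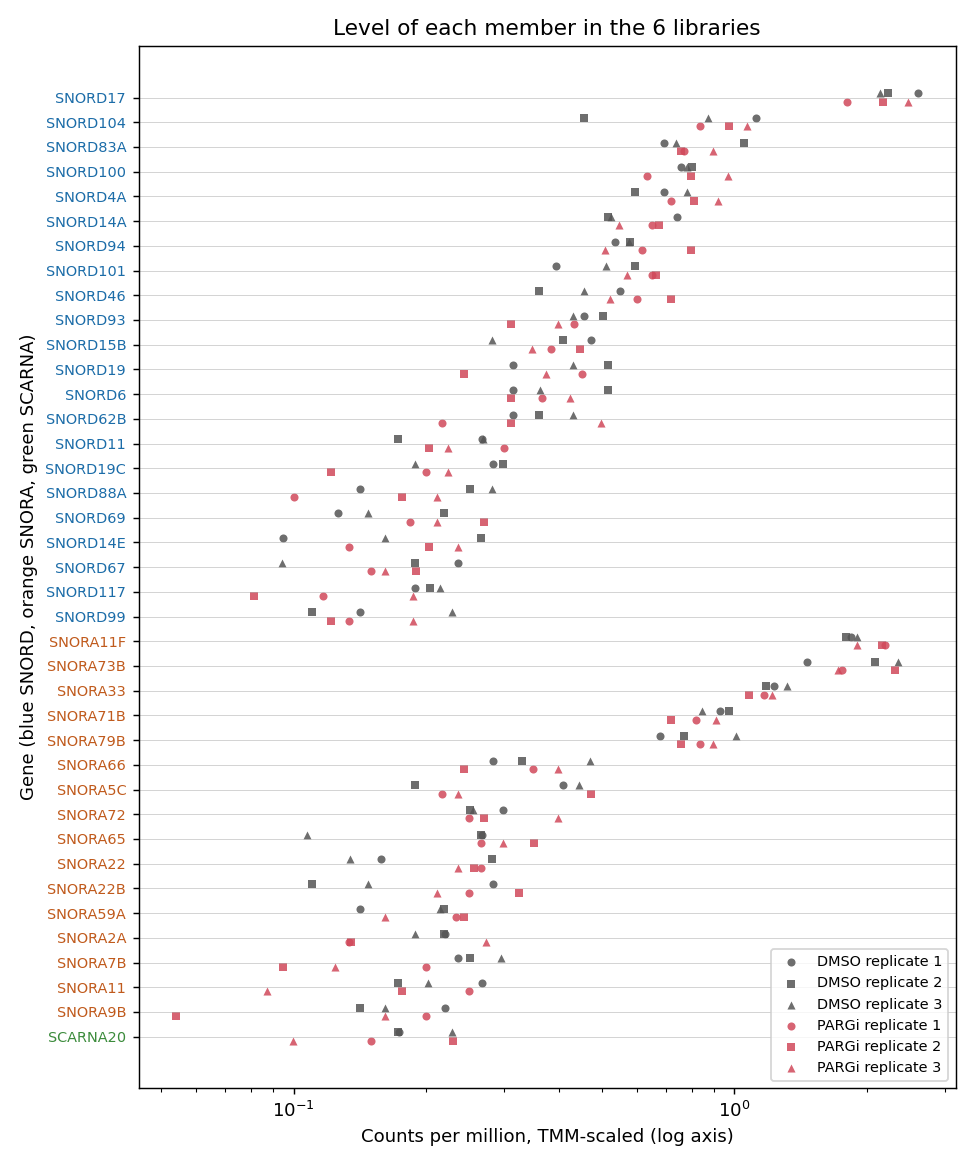
Level of each of the 39 members in TMM-scaled CPM (horizontal log axis), with 1 point for each of the 3 DMSO (gray) and 3 PARGi (red) libraries and the shape giving the replicate. The members run from 2.15 CPM in PARGi (mean of SNORD17) down to 0.128 CPM (SNORD117), and the ranges of the red and gray points overlap for all but 3 of the 39 members.

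No member passed the test between PARGi and DMSO, and the summed level of each class was alike in both groups within the spread of the libraries. Summed over the 22 SNORD members, the level was 11.4, 11.2 and 10.9 CPM in DMSO and 10.4, 11.4 and 12.2 CPM in PARGi (11.2 ± 0.278 and 11.3 ± 0.862, SD, n = 3 each). Over the 16 SNORA members it was 8.93, 9.23 and 10.0 CPM in DMSO and 9.38, 9.65 and 9.22 CPM in PARGi (9.40 ± 0.571 and 9.42 ± 0.218). In both classes the PARGi libraries lay on both sides of the DMSO values or inside them. Over all 39 members the sums were 20.8 ± 0.334 CPM in DMSO and 20.9 ± 0.813 CPM in PARGi. In RNA from whole cultures, fewer cells with an RNA and less of it per cell cannot be told apart. For intronic members, reads from the mature RNA and from the unspliced host transcript also cannot be told apart in these counts.

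Across single members, 0 of 38 had an adjusted p under 0.05 in edgeR's quasi-likelihood test (Benjamini-Hochberg over all 20409 tested genes), where 24.3% of all tested genes did. Among the 6768 tested genes of the members' abundance range the share was 8.16%. At an unadjusted p under 0.05 there was 1 of 38 (2.63%; SNORA7B) in edgeR, 1 in limma-voom and 0 in DESeq2, against 16.5% of the genes in that range by edgeR. The CPM of the groups did not overlap for 3 of the 39 members (7.69%; SNORD117, SNORA11F and SNORA7B), where 38% of all tested genes and 21.2% of those in the abundance range did not overlap. Fold changes lay above 0 for 18 members and below 0 for 20. The median log2 fold change of PARGi over DMSO was 0.0085 for SNORD members (11 above 0, 10 below), -0.071 for SNORA members (7 above, 9 below) and -0.28 for SCARNA20. Over all tested genes it was -0.0070, and over the genes in the abundance range -0.099, with 37.4% of them above 0.

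**Figure D3:**
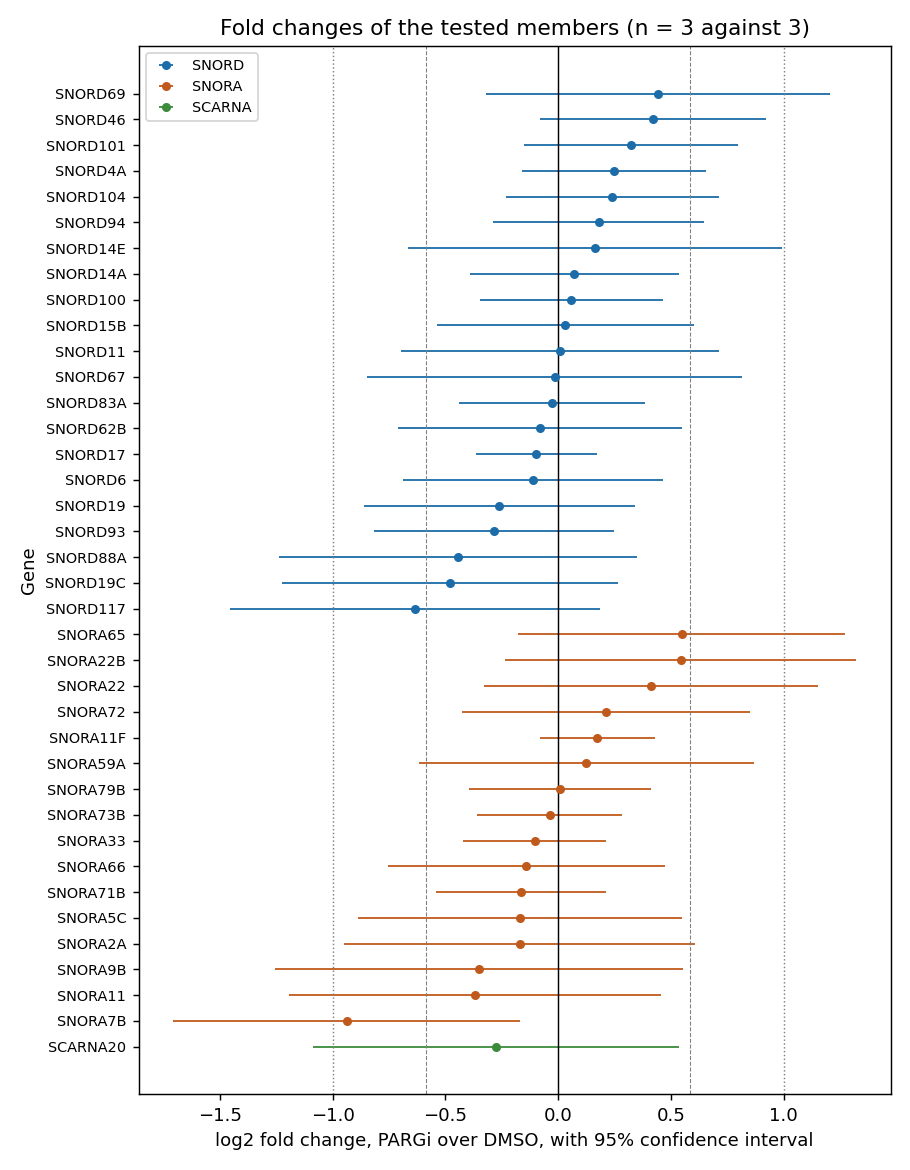
Log2 fold change of PARGi over DMSO (horizontal axis) with its 95% confidence interval from edgeR for the 38 tested members, ordered by fold change within each class (SNORD blue, SNORA orange, SCARNA green). Dashed and dotted lines mark 1.5-fold and 2-fold changes; the interval of SNORA7B, -1.71 to -0.17, is the 1 that leaves out 0 before adjustment.

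Of the box C/D members, SNORD17 had 2.61, 2.23 and 2.14 CPM in DMSO and 1.80, 2.18 and 2.47 CPM in PARGi. The PARGi values reached both below and above most DMSO values, and the log2 fold change was -0.10 (SE 0.13, adjusted p = 0.651 in edgeR). SNORD104 had 1.12, 0.455 and 0.873 CPM in DMSO and 0.833, 0.973 and 1.07 CPM in PARGi. The 3 PARGi values lay inside the DMSO range, in which replicate 2 was the low library, and the log2 fold change was 0.24 (SE 0.23). The interval of SNORD17 ran from 0.777-fold to 1.13-fold and that of SNORD104 from 0.852-fold to 1.64-fold.

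SNORD4A, in an intron of RPL23A, had 0.693, 0.596 and 0.779 CPM in DMSO and 0.717, 0.811 and 0.920 CPM in PARGi. Here 2 of 3 PARGi libraries exceeded every DMSO library, with a log2 fold change of 0.25 (SE 0.20, adjusted p = 0.409 in edgeR). The U14 copies did not separate the groups either. SNORD14A had 0.740, 0.518 and 0.524 CPM in DMSO and 0.650, 0.676 and 0.547 CPM in PARGi. SNORD14E had 0.0945, 0.267 and 0.161 CPM in DMSO and 0.133, 0.203 and 0.236 CPM in PARGi. Their log2 fold changes were 0.07 (SE 0.22) and 0.16 (SE 0.40). The other U14 genes, SNORD14B, SNORD14C and SNORD14D, lie in RPS13 or HSPA8, overlap an exon and had 0 counts.

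Among the low members, SNORD117 had 0.189, 0.204 and 0.215 CPM in DMSO and 0.117, 0.0811 and 0.186 CPM in PARGi. The groups did not overlap, by a gap that rests on PARGi replicate 3, which had 15 counts against 12 in DMSO replicate 1 at a larger total. Its log2 fold change was -0.64 (SE 0.40, adjusted p = 0.27 in edgeR), and it was -1.05 without PARGi replicate 3 and -0.38 without PARGi replicate 2. SNORD46, chosen after its values were seen, had 0.551, 0.361 and 0.457 CPM in DMSO and 0.5999, 0.717 and 0.522 CPM in PARGi. The groups overlapped through PARGi replicate 3, and the log2 fold change was 0.42 (SE 0.24, adjusted p = 0.226). SNORD69 had the highest SNORD value, 0.44 (SE 0.37), and the remaining SNORD members lay between -0.48 (SNORD19C) and 0.32 (SNORD101).

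Of the box H/ACA members, SNORA11F had 1.84, 1.79 and 1.89 CPM in DMSO and 2.20, 2.16 and 1.9015 CPM in PARGi. The groups did not overlap, but the lowest PARGi library lay just above the highest DMSO library (1.8938 CPM). The log2 fold change was 0.17 (SE 0.12, adjusted p = 0.338 in edgeR), with an interval from 0.947-fold to 1.34-fold. SNORA11, its relative on the X chromosome, had a log2 fold change of -0.37 (SE 0.40), and its groups overlapped.

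SNORA73B, the U17 copy, had 1.46, 2.09 and 2.35 CPM in DMSO and 1.75, 2.31 and 1.72 CPM in PARGi. All 3 PARGi values lay inside the DMSO range, and the log2 fold change was -0.04 (SE 0.16, adjusted p = 0.898 in edgeR). SNORA33 was among the most even members, with 1.23, 1.177 and 1.32 CPM in DMSO and 1.17, 1.08 and 1.22 CPM in PARGi. Its log2 fold change was -0.10 (SE 0.15), with an interval from 0.747-fold to 1.16-fold. SNORA79B, in an intron of CCNB1IP1, had 0.677, 0.769 and 1.01 CPM in DMSO and 0.833, 0.757 and 0.895 CPM in PARGi, inside the DMSO range, and a log2 fold change of 0.01 (SE 0.19). Under 2 other scalings that value was -0.0154 and -0.0069, far smaller in size than its error.

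SNORA7B, named after its values were seen, stood farthest from 0. It had 15, 16 and 22 counts in DMSO (0.236, 0.251 and 0.296 CPM) and 12, 7 and 10 counts in PARGi (0.200, 0.0946 and 0.124 CPM). Every PARGi value was lower than every DMSO value, at 0.140 ± 0.054 against 0.261 ± 0.031 CPM (SD, n = 3 each). The log2 fold change was -0.94 (SE 0.37, adjusted p = 0.0704 in edgeR), with an interval from 0.306-fold to 0.89-fold. It did not pass the threshold, except without PARGi replicate 1, where the log2 fold change was -1.24 and the adjusted p in edgeR 0.0495. With each other library left out in turn the adjusted p was 0.11 to 0.253. SNORA7A, 98.6% identical to it, overlaps an exon and had 0 counts, so the source of the SNORA7B counts is uncertain.

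The largest positive values of the class were those of SNORA65 and SNORA22B, also chosen after their values were seen. SNORA65, in an intron of RPL12, had 0.268, 0.267 and 0.107 CPM in DMSO and 0.267, 0.352 and 0.298 CPM in PARGi. The low DMSO library was replicate 3, with 8 counts, and the log2 fold change was 0.55 (SE 0.35, adjusted p = 0.285 in edgeR). Without that library it was 0.20. SNORA22B, in CCT6A, and SNORA22, in the pseudogene CCT6P1, were 92.8% identical and had 92 counts each. Their log2 fold changes were 0.54 (SE 0.38) and 0.41 (SE 0.36), and the groups overlapped for both. With each library left out in turn, SNORA22B was lowest at 0.30 when DMSO replicate 2 was dropped and highest at 1.00 when replicate 1 was. SNORA9B, at the lower limit of the choice, had 0.220, 0.141 and 0.161 CPM in DMSO and 0.200, 0.0541 and 0.162 CPM in PARGi, with a log2 fold change of -0.35 (SE 0.44).

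SCARNA20, the scaRNA, had 11, 11 and 17 counts in DMSO and 9, 17 and 8 in PARGi, or 0.173, 0.173 and 0.228 CPM against 0.14998, 0.230 and 0.0994 CPM. PARGi held both the highest and the lowest library. The log2 fold change was -0.28 (SE 0.39, adjusted p = 0.668 in edgeR), and its interval ran from 0.47-fold to 1.45-fold.

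These intervals describe the precision of the comparison. The 95% interval lay within a 1.5-fold change in both directions for 9 of the 38 tested members: 8 of the 10 with 317 counts or more, 1 of the 13 with 108 to 252 and 0 of the 15 with 64 to 99. It lay within 2-fold for 27 and reached a 2-fold change for 11. The median standard error of the log2 fold change was 0.30 for members, 0.25 for all genes of their abundance range and 0.061 for all tested genes. The members' standard errors were 1.12 to 1.54 times those that counting error alone would give. For most members the interval therefore reached a 1.5-fold change in at least 1 direction. The adjusted threshold was stricter than these unadjusted intervals. The interval of SNORA7B left out 0 at a log2 fold change of -0.94 (SE 0.37), while its adjusted p was 0.0704 in edgeR. A p above the threshold does not show that levels were equal.

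**Figure D4:**
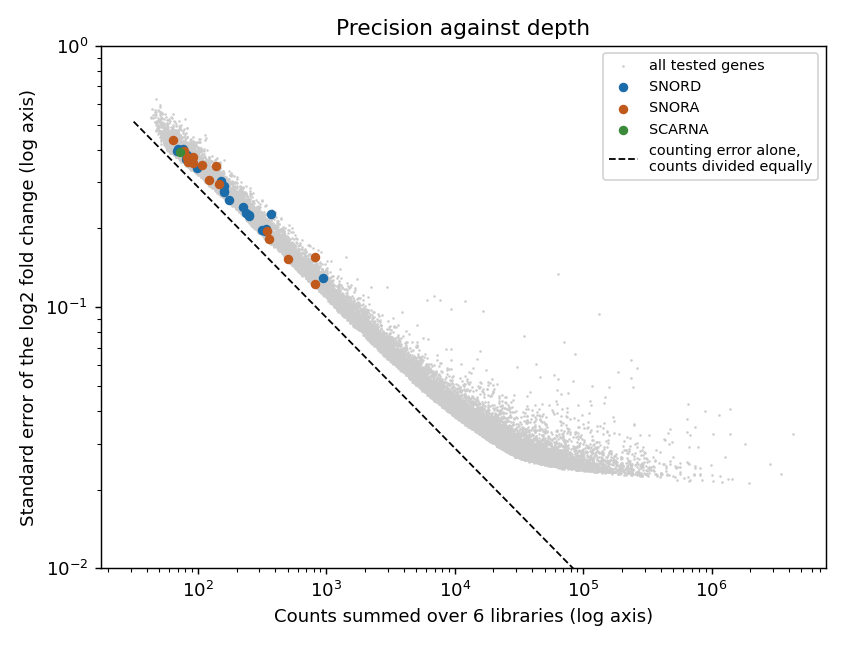
Standard error of the log2 fold change from edgeR (vertical log axis) against counts summed over the 6 libraries (horizontal log axis) for all 20409 tested genes (gray) and the 38 tested members (colors by class). The dashed line is the error from counting alone with the counts divided equally between groups; the members lie at the low-count end of the gray cloud, with standard errors from 0.12 to 0.44.

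The host genes changed by small amounts. Of the members, 38 lay within the span of a gene on the same strand, always in its introns, and SNORA11F lay in none. There were 34 hosts, 28 of them protein-coding and 9 ribosomal protein genes. Of 32 tested hosts, 8 fell, 1 rose and 23 did not pass the test, where 24.3% of all tested genes passed, and their log2 fold changes ran from -0.15 to 0.15. Among those that fell were RPL3 (1429 ± 37.8 to 1298 ± 24.4 CPM, log2 fold change -0.14, adjusted p = 0.000142 in edgeR), RPS12 (533 ± 19.5 to 498 ± 15.9 CPM, -0.10) and DDX39B (121 ± 2.65 to 109 ± 4.55 CPM, -0.15), an RNA helicase of mRNA export. RPL32P3, the host of SNORA7B, also fell (18.7 ± 0.862 to 16.9 ± 0.474 CPM, -0.145, adjusted p = 0.0251 in edgeR). The host that rose was TBRG4 (68.2 ± 1.53 to 72.9 ± 1.14 CPM, 0.10), which acts on mitochondrial RNA.

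Host changes were small beside the error of the members, whose median standard error was 0.30, so signs and correlations of the pairs cannot show whether members moved with their hosts. Of 35 pairs in which both were tested, 14 had the same sign. Across these pairs Pearson's r of the log2 fold changes was -0.021 and Spearman's rho -0.14, given as a description, since several pairs share a host and all share the libraries. Of 10 members in hosts that fell, 6 lay below 0. In RPS12 the members were SNORA33 at -0.10, SNORD100 at 0.06 (SE 0.20) and SNORD101 at 0.32 (SE 0.23), and in GNL3, a nucleolar GTPase, SNORD19 was at -0.26, SNORD19C at -0.48 and SNORD69 at 0.44. None of the 6 passed the test, and at these errors their signs cannot be told apart.

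**Figure D5:**
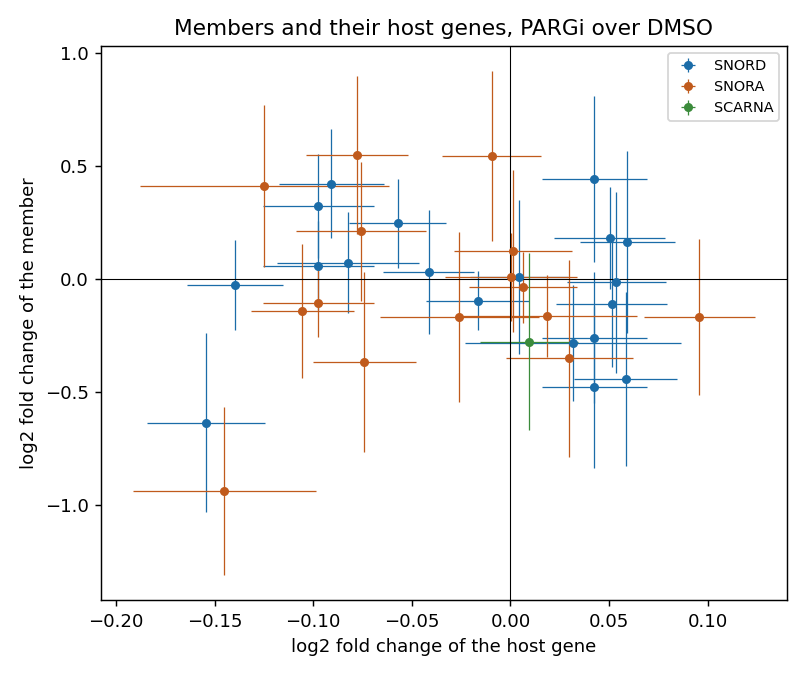
Log2 fold change of each member (vertical axis) against that of its host gene (horizontal axis), PARGi over DMSO, for the 35 pairs in which both were tested; bars are standard errors from edgeR and colors give the class. The axes differ in scale: hosts lie between -0.15 and 0.10, members between -0.94 and 0.55, and Pearson's r is -0.021.

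The ratio of a member to its host was also taken in each library, as log2 of member over host counts with 0.5 added to both. For 5 of 37 pairs (13.5%) the ratios of the groups did not overlap, and these included SNORD101, SNORA71B, SNORA65 and SNORA7B. The 13 pairs named by rule were not among them, so those named here were chosen after their values were seen. No like share over other pairs of genes was computed. For CPM alone, the groups did not overlap for 21.2% of the genes in the abundance range. For SNORD101 in RPS12 the log2 ratio was -10.4, -9.79 and -9.95 in DMSO and -9.60, -9.49 and -9.76 in PARGi. For SNORA7B it was -6.19, -6.18 and -6.01 in DMSO and -6.37, -7.34 and -7.04 in PARGi. The exact two-sided permutation test gave p = 0.1 for each of the 5, the smallest p that 3 against 3 libraries allow, and 0.74 after Benjamini-Hochberg adjustment over the 37 pairs. Of the 37 differences, 18 lay above 0.

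Per kilobase, members stood far below the exons of their hosts. The level of a member was at a median 7.80% of its host's level per kb, and for 20 of 37 pairs it was under 10%. It was 1.37% for SNORA33, 1.55% for SNORD100 and 1.15% for SNORD101 in RPS12, and 0.828% for SNORD14E in HSPA8, a highly expressed chaperone gene. SNORD17 reached 69.9% of SNX5, a sorting nexin gene, and SNORA73B 29.6% of RCC1, the nucleotide exchange factor of Ran. Each of these members had 2 candidate hosts, and its share is that of the candidate with more counts. In 2 pairs the member exceeded the host: SNORD93 over SNHG26 (120%) and SNORD104 over SNHG25, whose own level was 0.0464 ± 0.0325 CPM in DMSO and too low for the test.

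Most genes for the proteins that build and carry these RNAs did not pass the test, which 24.3% of all tested genes passed. None of the 4 box C/D core proteins passed the test. The C/D methyltransferase FBL had 148 ± 20.3 CPM in DMSO and 139 ± 1.70 CPM in PARGi (log2 fold change -0.09, SE 0.05), and NOP56, NOP58 and SNU13 lay between 0.0041 and 0.018. None of the 4 box H/ACA core proteins passed either. The pseudouridine synthase DKC1 had 198 ± 2.21 and 196 ± 1.62 CPM, and NOP10 had 58.97 ± 0.577 and 62.0 ± 1.27 CPM without overlap (0.07, adjusted p = 0.0793 in edgeR). The medians of these lists were 0.01 and 0.03.

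Of 10 assembly factors, 3 rose and 2 fell, all by small amounts, with a list median of 0.05, where 24.3% of all tested genes passed in either direction. Those that rose were ZNHIT3 (40.9 ± 0.668 to 44.6 ± 0.754 CPM, log2 fold change 0.13, adjusted p = 0.0052 in edgeR) and RPAP3 (59.9 ± 0.902 to 64.0 ± 1.24 CPM, 0.10), both of the box C/D assembly pathway, and SHQ1 (34.2 ± 0.289 to 37.1 ± 0.324 CPM, 0.12), the chaperone of dyskerin. Those that fell were PIH1D1 (83.3 ± 1.02 to 78.4 ± 1.35 CPM, -0.09), a partner of RPAP3 in the R2TP complex, and NOP53 (252 ± 12.5 to 237 ± 7.14 CPM, -0.09), a ribosome biogenesis factor whose groups overlapped. Of 16 Cajal body and transport genes, 2 fell and none rose. They were ICE2 (57.7 ± 1.12 to 52.6 ± 0.734 CPM, -0.13), a subunit of the little elongation complex at snRNA genes, and the export receptor XPO1 (477 ± 7.86 to 453 ± 5.45 CPM, -0.07). Coilin (COIL, 33.2 ± 0.536 and 33.3 ± 0.888 CPM) and WRAP53 (22.4 ± 0.0546 and 22.6 ± 1.21 CPM), which bring scaRNAs to Cajal bodies, did not pass. Of 12 tested genes of 3′ end processing and decay, 0 passed the adjusted threshold. The list median was -0.0029, and PARN, the deadenylase that trims H/ACA RNAs, had 30.02 ± 0.554 and 30.003 ± 0.519 CPM.

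Rows of other small structured RNAs, among them copies named as pseudogenes, were also mostly at 0. Of 1899 rows, 1383 were at 0 and 25 were tested. The test was passed by 24.3% of all tested genes and by 8.16% of those in the members' abundance range. Of the 25, 1 rose (RNU6-583P, 0.1002 ± 0.036 to 0.269 ± 0.131 CPM) and 1 fell (RNU6-610P, 0.255 ± 0.065 to 0.112 ± 0.051 CPM). Both carry the names of U6 pseudogene copies and had 78 and 75 counts, so their source is uncertain. RN7SL1, the RNA of the signal recognition particle, held 34391 counts and had 85.8 ± 16.7 CPM in DMSO and 81.0 ± 6.46 CPM in PARGi. The summed level of these RNAs was 119, 97.0 and 84.7 CPM in DMSO and 101, 89.8 and 92.8 CPM in PARGi. Most of it was RN7SL1, with 103.9, 82.5 and 70.9 CPM in DMSO and 88.3, 76.1 and 78.6 CPM in PARGi. DMSO replicate 1 was the highest library in this sum, and the PARGi values lay inside the DMSO range.

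The cell line's markers were present, with COL1A1 at 4371 ± 268 CPM, VIM at 2474 ± 57.8, SPARC at 1676 ± 17.2 and RUNX2 at 83.3 ± 1.14 in DMSO, while SP7 had 4 counts in all. Of the 8 markers of other cell types, summed to 6.42 to 6.79 CPM in DMSO and 6.11 to 6.67 in PARGi, CD3E had 2 counts. CDH1 was the 1 that rose (0.718 ± 0.0247 to 1.14 ± 0.208 CPM), and its part in the members' values was not tested.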

How the data were processed

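Total RNA of 3 DMSO and 3 PARGi libraries was extracted with Direct-zol, and the TruSeq Stranded Total RNA kit was used for the libraries, per the labels' protocols. The authors deposited raw counts for each gene, which are not normalised. The submitters' processing notes name cutadapt 1.18, STAR 2.7.3a, SAMtools 1.9, DESeq2 3.12, deepTools and hg38. Their roles, the annotation release and the treatment of ambiguous reads are not given in the sources used here. Of 60708 gene identifiers, 2268 are absent from GENCODE 29, which supplied positions, exons, hosts and sequences. Symbols were looked up by Ensembl identifier.

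The host is the gene of another kind on the same strand whose span holds the member, and for 3 members with 2 candidates (SNORD17, SNORA73B and SNORD117) the one with more counts. Counts were tested with edgeR 4.0.16 (R 4.3.3): genes kept by filterByExpr, TMM factors, then glmQLFit with a two-sided glmQLFTest over all 6 libraries, Benjamini-Hochberg over 20409 genes, threshold 0.05. CPM are TMM-scaled with the SD over 3 libraries. Intervals are 95% and from the same fit. The abundance range spans the tested members' average abundance in that fit. Identity is 100% less the edit distance of a global alignment as a share of the longer sequence. The scripts were run on simulated data with changes placed in genes other than the members. That run did not measure how often changes would be found at the members' counts. Libraries held 60286931 to 80605145 counts. Alternatives were DESeq2 1.42.0, limma-voom (limma 3.58.1), other scalings and filters, a replicate block, a minimum of 120 counts, and each library left out. The members and lists were chosen with earlier results of these data known. Named by rule were the U3, U8, U13, U14, U17 and selected scaRNA genes, the 4 highest per kb of each class, and the genes nearest the limit of 60 counts.

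Same-numbered DMSO and PARGi libraries did not deviate together (r -0.0059, 0.016 and -0.0078 over genes), so the numbers were not taken to pair them. No 2 libraries were duplicates, with chi-square per degree of freedom between 2.27 and 6.11 within groups.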

Additional observations from a re-analysis of the deposited data

How the results depend on the processing

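The count of 0 called members held under DESeq2, limma-voom, 3 other scalings, 2 other filters and the minimum of 120 counts. DESeq2 gave an adjusted p for 10 members alone, and with at least 10 counts in every library 24 members were tested. With each library left out in turn the number of called members ranged from 0 to 1, and that of called SNORA members from 0 to 1; the 1 was SNORA7B without PARGi replicate 1 (-1.24). The median of SNORA members then ranged from -0.11 to 0.11 and was 0.03 without PARGi replicate 2, so its sign is not settled. Among 13 pairs named by rule, the number whose member-to-host ratios did not overlap was 0, and 0 to 3 with a library left out, where fewer libraries make separation easier.

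Signs near 0 turned with single libraries left out. The log2 fold changes ranged from -0.018 to 0.25 for SNORD14A, -0.12 to 0.58 for SNORD14E, -0.21 to 0.12 for SNORA73B, -0.033 to 0.51 for SNORD104, -0.11 to 0.19 for SNORD100, -0.21 to 0.0053 for SNORD17, -0.11 to 0.20 for SNORA79B, -0.66 to 0.0018 for SCARNA20 and -0.66 to 0.040 for SNORA9B. SNORA79B was at -0.0154 under upper-quartile scaling and -0.0069 with TMM factors from protein-coding genes alone. The causes were not tested.

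With the replicate number as a block, 0 members were called, SNORA7B had an adjusted p of 0.0895 in edgeR and a log2 fold change of -0.94, and no sign of a named member or call changed. Over all genes the block gave 4553 calls against 4951. Leaving out members that overlap an exon changes nothing, since none does.

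Depth limits these results: with 64 to 935 counts per member, the interval lay within a 1.5-fold change for 9 of 38.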
